A study of Mus musculus with 32 samples.

Results

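The creatine cycling genes are the 6 genes Ckb, Ckmt2, Gatm, Gamt, Slc6a8 and Alpl, which were looked up by symbol among the 50686 genes of the count table. All 6 were present and all 6 passed the expression filter that left 15505 genes for testing. They were measured in the iBAT of 32 mice, the interscapular depot of brown fat that burns fuel to warm the body. Every mouse was a non-fasted, chow-fed male of the wild-type strain C57BL/6J, aged 10 weeks and kept under a light:dark cycle with equal phases, and no mouse carried a transgene or received an agent. By the labels the groups are set by Zeitgeber time (ZT), which is counted in hours from lights on: 4 mice were killed every 3 h from ZT0 to ZT21. Lights went off at ZT12. Each mouse gave 1 library, and no mouse was sampled more than once.

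Creatine cycling is a way for a cell to spend ATP without doing work. Creatine kinase moves a phosphate from ATP to creatine, a phosphatase removes that phosphate again, and the returning creatine and ADP allow the next round, which keeps mitochondrial respiration running and releases heat. In brown fat the cycle is known as a heat-producing route beside that of UCP1, the uncoupling protein. Ckb encodes the cytosolic brain-type creatine kinase and Ckmt2 the mitochondrial sarcomeric creatine kinase, which is also abundant in striated muscle. Gatm and Gamt encode the enzymes of the first and the last step of creatine synthesis, Slc6a8 encodes the creatine transporter of the cell membrane, and Alpl encodes tissue-nonspecific alkaline phosphatase, to which phosphocreatine hydrolysis has been attributed. Ckm, the creatine kinase of skeletal muscle, is no member and served as the measure of muscle RNA in each fat pad.

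The regions upstream of the start sites of the creatine kinase genes are shown because both genes are also used by muscle-type cells and because their transcripts behaved differently here. The runs hold the 250 bases before the RefSeq start site on the minus strand, 5′ to 3′ in the sense of the gene, on GRCm38.p6 (chr12:111672339-111672588 for Ckb and chr13:91876886-91877135 for Ckmt2). Capitals mark the matches among the 6 motifs spelled out or named after them, which were searched on both strands and do not overlap in these windows.
Ckb: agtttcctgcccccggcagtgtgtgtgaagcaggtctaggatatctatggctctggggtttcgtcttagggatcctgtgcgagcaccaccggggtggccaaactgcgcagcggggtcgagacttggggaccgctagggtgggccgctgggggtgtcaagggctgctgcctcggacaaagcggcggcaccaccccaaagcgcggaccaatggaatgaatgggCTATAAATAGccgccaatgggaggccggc
Ckmt2: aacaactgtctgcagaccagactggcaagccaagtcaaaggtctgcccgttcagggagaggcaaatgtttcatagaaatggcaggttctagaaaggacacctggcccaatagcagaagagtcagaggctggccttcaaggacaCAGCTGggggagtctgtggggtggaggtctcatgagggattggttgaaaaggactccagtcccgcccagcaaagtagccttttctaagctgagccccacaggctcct
The Ckb window holds a match to the MEF2 site, named for a muscle factor, starting 29 bases before the start site, and 3.2% of 32851 promoter windows of this length held one. The same letters also read as a TATA box, which was not among the 6 motifs searched. The match cannot tell these readings apart. The Ckmt2 window holds CAGCTG, the E-box of the myogenic factors, 107 bases before its start site, and 13% of promoter windows did. Neither held the circadian E-box CACGTG (6.02% of windows) or the D-box TTATGNAA (3.07% of windows). The cAMP-response element TGACGTCA and the ERR site TCAAGGTCA, held by 1.55% and 0.387% of windows, were not among their letters either. The myogenic E-box was not particular to Ckmt2. It was also held by the window of Ckm and by that of 1 start site of Alpl. Neither Ckb nor Alpl showed a relation to Ckm past the threshold, so these motifs do not set Ckmt2 apart. A match describes the letters of a window and is no measurement of binding.

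The libraries held 16300770 to 18254659 counted reads each (median 17418661). Levels are given in CPM, the reads of a gene scaled to library size with TMM factors, as mean ± SD over 4 mice. The markers of brown adipocytes fixed for this comparison (10 genes, Ucp1, Cidea and Fabp4 among them) were detected in every library, with a summed level of 10523 to 16673 CPM, and Ucp1 alone ranged from 955 to 4319 CPM. Markers of skeletal muscle (14 genes) ranged far more widely, from a summed 11.9 to 6316 CPM, with no marker at 0 throughout. In whole tissue, fewer cells of a type and less RNA per cell cannot be told apart. Lane 2 of the sequencer held the mice of ZT0 to ZT6, lane 3 those of ZT9 to ZT15 and lane 4 those of ZT18 and ZT21, so that differences between time points of different lanes cannot be told apart from differences between lanes.

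Per kilobase of annotated exon, the scale on which genes can be compared with each other, the mean level was 9.09 CPM per kb for Ckmt2, 8.22 for Slc6a8, 7.45 for Ckb, 4.80 for Alpl, 3.46 for Gamt and 1.38 for Gatm. The mean of Ckmt2 rests on a part of the mice: by the median over the 32 libraries the order was Slc6a8 (7.83 CPM per kb), Ckb (6.59), Alpl (4.67), Gamt (3.35), Ckmt2 (2.43) and Gatm (1.06). Ucp1 stood at 1350 CPM per kb on the same scale and Ckm at 53.4. In counts, Gatm had 32 to 186 reads per library and Slc6a8 415 to 1381. Ckmt2 had 0 to 1131 reads, and 11 of the 32 libraries held 3 reads or fewer, and 3 reads amount to 0.158 to 0.192 CPM, depending on the library (counting error only).

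**Figure D1:**
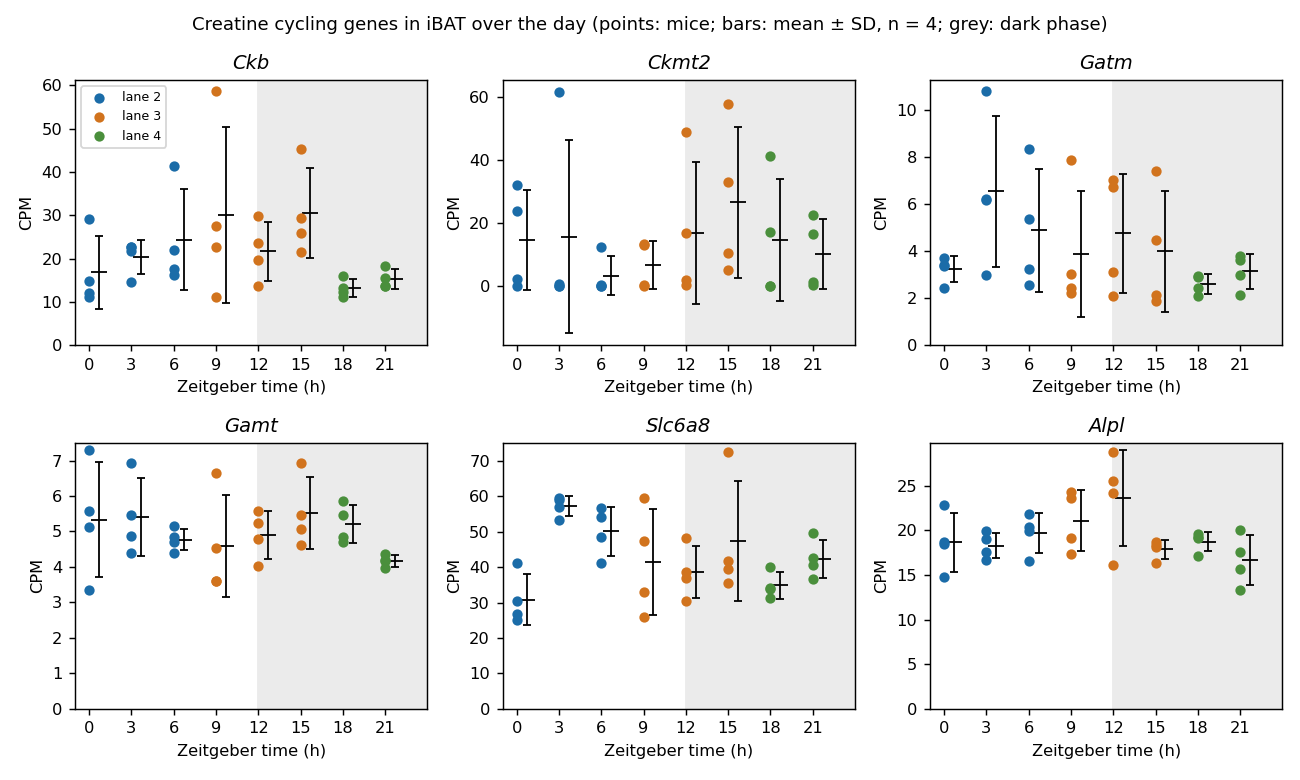
CPM of the 6 creatine cycling genes (y axis) by Zeitgeber time in hours (x axis), 1 point per mouse coloured by sequencing lane, with the mean and SD of 4 mice beside them and the dark phase in grey. Slc6a8 at ZT3 (53.3 to 59.6 CPM) lies above all 4 mice of ZT0 (25.1 to 41.2 CPM), whereas Ckmt2 runs from 0 to 61.6 CPM within ZT3 alone.

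The first question was whether the 6 genes oscillate over the day. A cosine of 24 h was found for 2 of them, Ckb and Alpl (edgeR, Benjamini-Hochberg adjusted over all tested genes), against 36.1% of all genes tested. Any difference between the 8 time points was found for 1, Slc6a8, against 39.8% of all genes, and DESeq2 found it for 2, Ckb and Slc6a8, against 45.2% of all genes. By JTK no member oscillated at P under 0.05, whereas 36.4% of all genes did, and 27.1% did at a BH under 0.05. The lowest JTK P among the members was 0.0635, for Ckb (BH 0.162). The median cosine amplitude of the 6 genes was 0.26 on the log2 scale, beside 0.14 over all tested genes. An amplitude is never negative and rises with the spread between mice, so this median is no sign of a wider rhythm. The largest, 1.60 for Ckmt2 (SE 0.83), had an edgeR adjusted p of 0.630, and 0.35 for Gatm (SE 0.16) had 0.110. With lane as an additive factor none of the 6 kept a cosine in edgeR, at an adjusted or an unadjusted p under 0.05, whereas 17.2% and 30.6% of all genes did. The amplitude of Ckb was then 0.12 in place of 0.40, and that of Alpl 0.18 in place of 0.16.

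Ckb (ENSMUSG00000001270, chromosome 12, 111669361 to 111672338, GRCm38) rose towards the end of the light phase and the early dark phase and was lowest in the middle of the dark, at ZT18. The fitted peak fell at ZT9.7 (SE 1.3 h). Its log2 amplitude was 0.40 (SE 0.14), that is 1.75-fold from trough to peak, with an edgeR adjusted p of 0.0230. In order of level, the means were 13.2 CPM ± 2.07 at ZT18, 15.3 CPM ± 2.26 at ZT21, 16.8 CPM ± 8.35 at ZT0 and 20.5 CPM ± 3.88 at ZT3. Above these stood 21.7 CPM ± 6.81 at ZT12, 24.3 CPM ± 11.6 at ZT6, 30.1 CPM ± 20.3 at ZT9 and 30.5 CPM ± 10.3 at ZT15 (SD, n = 4 each). Neighbours in the order of these means differed by less than their pooled SD in each of the 7 pairs.

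The mice of ZT9 spanned the whole range of the gene. Replicates 1 to 4 had 11.2, 22.8, 58.7 and 27.6 CPM, and without replicate 3 the cosine of Ckb had an amplitude of 0.32 and an edgeR adjusted p of 0.0935. The same library had the highest leukocyte sum of all 32 (196 CPM, beside a median of 50.6 CPM) and the highest blood sum (1137 CPM, beside a median of 515 CPM), and without it r of Ckb with the leukocyte list was 0.10 in place of 0.43. The part of these cells in the level of Ckb was not tested. With any of the 31 other libraries removed it stayed under 0.05. The widest step was from ZT15, with 45.2, 21.6, 26.0 and 29.3 CPM, to ZT18, with 13.2, 11.3, 16.1 and 12.2 CPM. These groups did not overlap, as was true of 10.3% of all genes for this pair. The log2 fold change was -1.21 (SE 0.37, edgeR adjusted p 0.104), which missed the threshold, and it crosses from lane 3 to lane 4. Within lanes 2, 3 and 4 the time points of Ckb gave adjusted p of 0.484, 0.748 and 0.392 in edgeR. A share of 95.5% of its 100-base exon stretches and 90.0% of its 50-base stretches is found in no other annotated gene. The other 50-base stretches are shared with Ckb-ps1, Ckb-ps2 and Gm12892. What part of the reads could not be placed was not tested.

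Alpl (ENSMUSG00000028766, chromosome 4, 137741733 to 137796384) peaked at nearly the same fitted hour, ZT9.9 (SE 1.3 h), but with a far smaller swing. Its log2 amplitude was 0.16 (SE 0.05), 1.25-fold from trough to peak, with an edgeR adjusted p of 0.0382. The highest mean was 23.7 CPM ± 5.35 at ZT12 and the lowest 16.7 CPM ± 2.83 at ZT21 (SD, n = 4 each), and neighbours in the order of the 8 means were within their pooled SD. At ZT12 the mice had 28.8, 25.5, 24.2 and 16.2 CPM, so that the 2 highest values of all mice were among them and replicate 4 was below the mean of ZT0. At ZT0 they had 22.9, 18.7, 18.5 and 14.7 CPM.

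Between ZT12 and ZT0, the onsets of the dark and the light phase, no member passed the threshold in edgeR, against 15.9% of all genes, and every member overlapped between these groups, whereas 16.3% of all genes did not. At an unadjusted p under 0.05, 1 member passed, Alpl, against 30.1% of all genes. DESeq2 also gave 0 members (16.7% of all genes), and 1 at an unadjusted p (29.2% of all genes). The log2 fold change of Alpl was 0.34 (SE 0.14, edgeR adjusted p 0.107), and without replicate 4 of ZT12 it was 0.48 with an adjusted p of 0.0159. The fitted values of the others were 0.55 for Gatm (SE 0.46), 0.37 for Ckb (SE 0.37), 0.32 for Slc6a8 (SE 0.21), 0.22 for Ckmt2 (SE 1.63) and -0.12 for Gamt (SE 0.19). Removing 1 library at a time, the cosine of Alpl was lost for 9 of 32, namely replicate 4 of ZT0, replicates 1 and 2 of ZT9, replicates 1, 2 and 3 of ZT12, replicate 2 of ZT18 and replicates 3 and 4 of ZT21 (edgeR adjusted p 0.0515 to 0.0799). Its amplitude stayed between 0.13 and 0.18 in all 32 of these fits.

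Slc6a8 (ENSMUSG00000019558, chromosome X, 73673150 to 73682502), the transporter that brings creatine into the cell, rose in the first hours of light. At ZT0 the mice had 26.6, 25.1, 30.4 and 41.2 CPM. At ZT3 they had 59.6, 53.3, 56.9 and 59.0 CPM, so that every mouse of ZT3 was above every mouse of ZT0. At ZT6 the level was 54.1, 56.7, 48.6 and 41.1 CPM. The log2 fold change of ZT3 against ZT0 was 0.89 (SE 0.21, edgeR adjusted p 0.00677), a 1.85-fold higher level, where 13.8% of all genes passed and 16.0% did not overlap. This was the only call among 48 member steps, the 6 genes over the 8 steps of 3 h. Of all genes, 2.08% passed from ZT3 to ZT6, 1.95% from ZT6 to ZT9, none from ZT9 to ZT12, 3.04% from ZT12 to ZT15, 1.17% from ZT15 to ZT18, 2.06% from ZT18 to ZT21 and 7.72% from ZT21 to ZT0.

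The rise lies within lane 2. On the 12 libraries of that lane alone the log2 fold change was 0.89 (SE 0.14, edgeR adjusted p 0.00624), and the 3 time points differed with an adjusted p of 0.00647, beside 12.6% of all genes. Lanes 3 and 4 gave no call for any of the 6 genes in edgeR (1.78% and 4.02% of all genes). At an unadjusted p under 0.05 none was found in lane 3 (15.6% of all genes) and 2 in lane 4, Slc6a8 and Gamt (19.9% of all genes). The means of Slc6a8 ran in the order 30.9 CPM ± 7.26 at ZT0, 34.8 CPM ± 3.74 at ZT18, 38.6 CPM ± 7.35 at ZT12 and 41.4 CPM ± 15.0 at ZT9, then 42.3 CPM ± 5.42 at ZT21, 47.3 CPM ± 17.0 at ZT15, 50.1 CPM ± 6.88 at ZT6 and 57.2 CPM ± 2.85 at ZT3 (SD, n = 4 each). Of the neighbours in this order, ZT6 and ZT3 differed by more than their pooled SD, and the 4 mice of each still overlapped. The fit of all 8 time points had an adjusted p of 0.0205 and stayed under 0.05 with each library left out in turn. The cosine had an adjusted p of 0.248.

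Mean sums of several marker lists also differed between ZT0 and ZT3, which was not put to a test. Of the lists given here only the stroma list did not overlap between these groups. The 5 genes of Schwann cells and nerve summed to 103 to 139 CPM at ZT0 and 104 to 291 CPM at ZT3, and the 3 stroma genes to 153 to 218 CPM and 251 to 389 CPM, with no defining marker at 0. The mean sum of the leukocyte list was 40.9 CPM at ZT0 (34.3 to 54.2) and 69.0 CPM at ZT3 (48.6 to 83.8). That of the lymphocyte list was 1.44 CPM (0.775 to 2.13) and 2.54 CPM (1.53 to 3.49). The blood list had 688 CPM (471 to 855) and 427 CPM (265 to 547). The white fat list had 154 CPM (89.0 to 208) and 104 CPM (68.5 to 129). The brown adipocyte list summed to 12892 to 14960 CPM at ZT0 and 12055 to 13078 CPM at ZT3. With the nerve list as a covariate, an alternative added after the data were seen, the log2 fold change of Slc6a8 was 0.67 (SE 0.18, edgeR adjusted p 0.0214). With the white fat list, whose main gene Lep itself varies with the hour, it was 1.07 (SE 0.20, adjusted p 0.00102). The part of the stroma, leukocyte, lymphocyte and blood markers was not tested.

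With all 32 libraries, the synthesis genes had no call in edgeR at an adjusted p under 0.05. Gatm (ENSMUSG00000027199, chromosome 2, 122594467 to 122611303), whose product makes guanidinoacetate from arginine and glycine, had its highest mean at ZT3, 6.54 CPM ± 3.21, and its lowest at ZT18, 2.60 CPM ± 0.411 (SD, n = 4 each). The mice of ZT3 had 6.18, 6.21, 10.8 and 3.00 CPM, those of ZT0 3.40, 3.38, 2.44 and 3.73 CPM, and the groups overlapped through replicate 4 of ZT3. The log2 fold change was 1.01 (SE 0.46, edgeR adjusted p 0.131). The cosine had an amplitude of 0.35 (SE 0.16, adjusted p 0.110), so that a trough-to-peak fold of up to 2.58 lies within its 95% interval. Gamt (ENSMUSG00000020150, chromosome 10, 80258151 to 80261012), which methylates guanidinoacetate to creatine, was the flattest member. Its means lay between 4.17 CPM ± 0.162 at ZT21 and 5.52 CPM ± 1.01 at ZT15 (SD, n = 4 each). The mice of ZT18 (4.69 to 5.86 CPM) did not overlap those of ZT21 (3.97 to 4.36 CPM), as was true of 13.0% of all genes for this pair. The cosine amplitude was 0.02 (SE 0.07, edgeR adjusted p 0.979), with a trough-to-peak fold of up to 1.25 inside the 95% interval.

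The second question was whether any member follows the muscle transcript Ckm (ENSMUSG00000030399, chromosome 7, 19404776 to 19422841) rather than the hour. Ckm ranged from 0.128 to 627 CPM, and every time point but ZT15 held mice both under and over 10 CPM. Deviations of each mouse from the mean of its time point were compared on the log2 scale. For Ckmt2 Pearson's r with Ckm was 0.991 and Spearman's rho 0.990 (both with a permutation p of 1e-05, the lowest value possible with 100000 resamples within time points, BH 6e-05 over the 6 relations, two-sided, n = 32). Within lanes 2, 3 and 4 r was 0.993, 0.991 and 0.988 (exact permutation p 0.000289, 0.000072 and 0.00521). Without the 2 libraries farthest from the median of Ckm, replicate 1 of ZT0 and replicate 1 of ZT18, it was 0.993. Both values come from the same libraries and share their depth.

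Ckmt2 (ENSMUSG00000021622, chromosome 13, 91853387 to 91876885) was close to absent where Ckm was. In the 9 libraries with Ckm under 1 CPM, which came from 5 time points, Ckmt2 had 0 to 2 reads each and 4 reads in all. In the 4 libraries with Ckm between 1 and 10 CPM it had 2 to 12 reads. In the 19 libraries with Ckm over 10 CPM it had 22 to 1131 reads, and its CPM was 6.77% to 9.90% of that of Ckm, with a median of 8.70%. The pair thus kept a nearly fixed proportion while both varied over orders of magnitude. At ZT3 the mice had 0.720, 61.6, 0 and 0 CPM of Ckmt2 and 7.26, 624, 0.580 and 0.470 CPM of Ckm. At ZT15, where the mean of Ckmt2 was highest (26.6 CPM ± 23.9, SD, n = 4), they had 57.7, 10.6, 32.9 and 5.16 CPM beside 617, 109, 395 and 66.1 CPM of Ckm. The lowest mean was 3.13 CPM ± 6.19 at ZT6, where replicate 2 alone held 12.4 CPM. Neither the cosine nor the time points of Ckmt2 passed the test (edgeR adjusted p 0.630 and 0.828).

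No stretch of 50 bases is shared between Ckm and any of the 6 genes in the annotation. Of the exons of Ckmt2, 84 bases overlap 1700119I11Rik on the other strand. The genes whose log2 CPM was most like that of Ckmt2 over the 32 libraries were Apobec2 (r = 0.996), Xirp2 (r = 0.996) and Cacna1s (r = 0.995). All are expressed in striated muscle, Cacna1s as the calcium channel subunit of the transverse tubules. The 14 skeletal muscle markers all correlated positively with Ckmt2, and their sum did so with r = 0.997 (permutation p 1e-05, BH 0.000540 over the 54 relations to marker lists). Ckmt2 also followed the stroma list (r = 0.56, rho 0.57, permutation p 0.000860, BH 0.00486), with r of 0.75, 0.27 and 0.69 within lanes 2, 3 and 4 (exact permutation p 0.00694, 0.379 and 0.0365). Whether any of the Ckmt2 reads came from brown adipocytes was not tested, beyond the 4 reads found in the 9 libraries nearly free of Ckm.

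**Figure D2:**
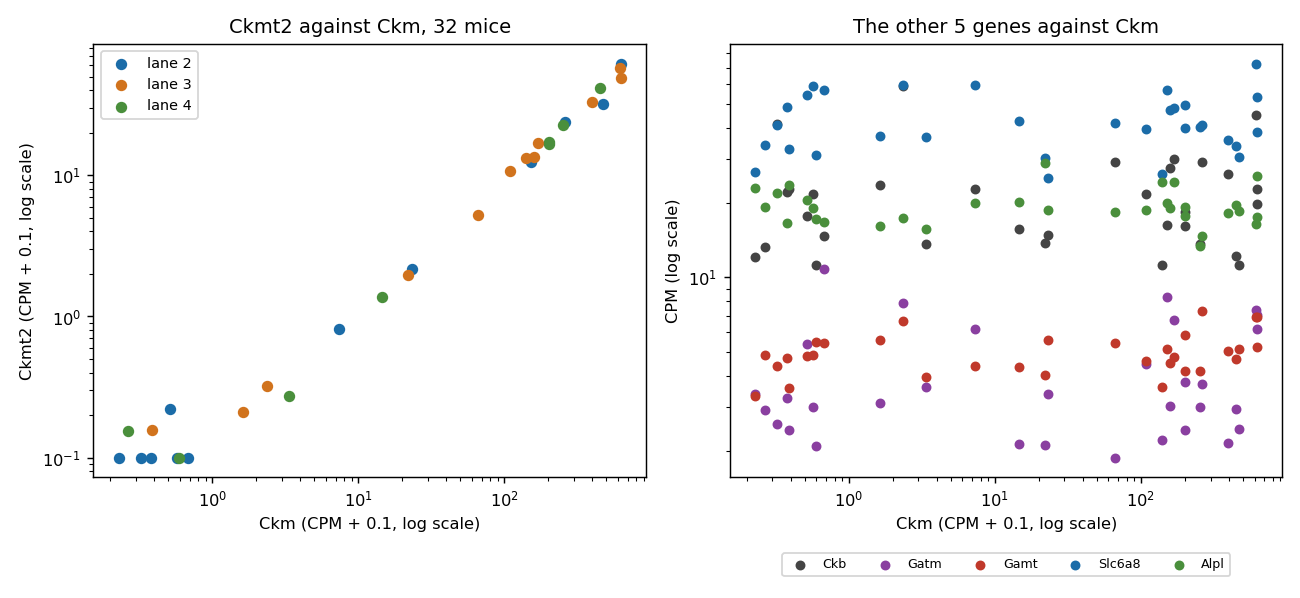
Left, Ckmt2 (y axis) against Ckm (x axis), both in CPM with 0.1 added on log axes, 1 point per mouse (32 mice) coloured by sequencing lane. Right, the other 5 genes in CPM (log y axis) against the same x axis: Ckmt2 rises with Ckm through every lane (r of the deviations 0.991), while for the others r lies between -0.02 and 0.34.

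The other 5 members showed no relation to Ckm past the threshold. Pearson's r of the deviations was -0.01 for Ckb, 0.23 for Gatm, 0.34 for Gamt, 0.24 for Slc6a8 and -0.02 for Alpl, with a lowest BH of 0.348 (permutation test, n = 32). Gamt within lane 2 had r = 0.72 (exact permutation p 0.0240), which lanes 3 and 4 did not repeat (-0.05 and 0.12, exact permutation p 0.922 and 0.760). The medians over the 9 libraries with Ckm under 1 CPM and over the 19 with Ckm over 10 CPM were 17.7 and 18.4 CPM for Ckb, 41.1 and 40.5 CPM for Slc6a8, 19.1 and 18.7 CPM for Alpl, 4.83 and 5.07 CPM for Gamt and 3.00 and 3.02 CPM for Gatm.

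The tests over the day were repeated with muscle taken into account. With log2 CPM of Ckm as a covariate the cosine of Ckb had an adjusted p of 0.0201, that of Alpl 0.0411, and the time points of Slc6a8 0.0124 (edgeR). Without the 5 libraries whose Ckm exceeded 10 times its median, Ckb had 0.0361 and the time points of Slc6a8 0.0407, whereas Alpl had 0.0728, with an amplitude of 0.15 beside 0.16 with all libraries, and Gatm passed with 0.0423. Leaving out all 19 libraries with Ckm over 10 CPM, chosen after the data were seen, left 13 mice, with none of ZT15 and 1 each of ZT0, ZT12 and ZT21. The cosine of Ckb then had an amplitude of 0.74 (SE 0.19, adjusted p 0.0215), Alpl had an adjusted p of 0.645, and Slc6a8 at ZT3 against ZT0 a log2 fold change of 1.13 (SE 0.28, adjusted p 0.0938) from 3 mice against 1, whose spread is assumed to be that of the other groups.

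How the members varied among mice of the same time point was described next. Of the 15 pairs of members and the 6 pairs with Ucp1, 9 passed BH 0.05 over the 21 relations (permutation test within time points, two-sided, n = 32). Ckb, Gamt and Slc6a8 varied together: r was 0.68 for Ckb with Slc6a8 (rho 0.55, permutation p 0.00221, BH 0.00928), 0.66 for Gamt with Slc6a8 and 0.61 for Ckb with Gamt. Gatm went with Slc6a8 (r = 0.64, rho 0.56, permutation p 0.000680, BH 0.00511). Alpl went the other way from Gamt (r = -0.66, rho -0.66, permutation p 0.000140, BH 0.00294). Without the 2 libraries farthest from the median of the second gene, r was 0.67, 0.66, 0.58, 0.58 and -0.68 for these 5 pairs. These relations were not alike in all lanes. For Ckb with Slc6a8 r was 0.11, 0.91 and 0.96 in lanes 2, 3 and 4 (exact permutation p 0.786, 0.000434 and 0.00174), and for Gamt with Alpl it was -0.79, -0.74 and 0.07 (exact permutation p 0.0213, 0.00145 and 0.757). Without replicate 1 of ZT15, which had the highest Slc6a8 of all mice (72.6 CPM), 3 of the 21 relations passed, and none of the 3 pairs among Ckb, Gamt and Slc6a8 did (BH 0.0511 for both pairs with Slc6a8). Ckb with Gamt was lost for 4 of 32 libraries left out in turn and without the 5 libraries of highest Ckm (r = 0.61, BH 0.10).

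Towards Ucp1 the members divided. Alpl was higher in the mice with more Ucp1 (r = 0.67, rho 0.59, permutation p 0.000730, BH 0.00511), with r of 0.40, 0.81 and 0.61 within lanes 2, 3 and 4 (exact permutation p 0.283, 0.00224 and 0.149) and 0.68 without the 2 libraries farthest from the median. Gatm, Slc6a8 and Gamt were lower in the mice with more Ucp1 (r = -0.54, -0.49 and -0.46, BH 0.0312, 0.0364 and 0.0238, permutation test). With 1 library left out, BH rose above 0.05 for 10 of 32 libraries for Slc6a8, 5 for Gatm and 4 for Gamt, among which replicate 3 of ZT9, replicate 1 of ZT12 and replicate 1 of ZT15 were common to all 3 genes. Without the 5 libraries of highest Ckm, Slc6a8 had r = -0.42 (BH 0.198). In lane 4 r was -0.45 for Gatm but 0.25 for Slc6a8 and 0.60 for Gamt, none past 0.05 in the exact permutation test. For Ckb and Ckmt2 the relation to Ucp1 did not pass (r = -0.23 and -0.13). All levels come from the same libraries, so a share taken by one transcript leaves less for the others. Ucp1 itself took at most 4319 CPM, and the part of this share in the relations was not tested.

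Marker lists of the cell types in the fat pad moved with several members, in 54 relations computed after the data were seen, of which 17 passed BH 0.05. Gatm followed the Schwann cell and nerve list (r = 0.90, rho 0.88, permutation p 3e-05, BH 0.000810). Its r was 0.94, 0.94 and 0.26 in lanes 2, 3 and 4 (exact permutation p 0.00391, 0.00108 and 0.684). All 5 markers were positive, and S100b was lowest (r = 0.08). The list summed to 87.7 to 291 CPM. Gatm also followed the stroma list (r = 0.74, BH 0.00306) and the leukocyte list (r = 0.57, BH 0.0292, and 0.36 without the 2 farthest libraries) and was lower with more of the brown adipocyte list (r = -0.61, BH 0.0178, permutation test). Among the genes most like Gatm over the 32 libraries were Cnp (r = 0.936) and Prx (r = 0.923), both genes of myelinating cells. With the nerve list as a covariate the cosine amplitude of Gatm was 0.15 (SE 0.07, edgeR adjusted p 0.248).

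Ckb followed the endothelium list (4 genes, a summed 547 to 845 CPM, r = 0.70, rho 0.68, permutation p 0.000330, BH 0.00356), with r of 0.73, 0.80 and 0.32 within lanes 2, 3 and 4 (exact permutation p 0.0330, 0.0118 and 0.571). Pecam1 (r = 0.82) and Cdh5 (r = 0.83) carried the relation, whereas Kdr, the most abundant marker of the list, had r = 0.20 and Emcn -0.04. Over the day the mean sum of the list was highest at ZT0 and ZT3 (765 CPM at each) and lowest at ZT12 (557 CPM). It was 628 CPM at ZT9 and 677 CPM at ZT15, where the means of Ckb were highest. The part of the endothelium in the time course of Ckb was not tested. With the nerve list as a covariate the cosine of Ckb had an amplitude of 0.35 (SE 0.13), beside 0.40 without it, and an edgeR adjusted p of 0.0584. The transcripts most like Ckb were Idh2, the mitochondrial isocitrate dehydrogenase (r = 0.908), Agrn, the matrix protein agrin (r = 0.904), and Fabp3-ps1 (r = 0.903), a pseudogene whose reads may belong to its parent gene.

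Gamt followed the white fat genes Lep and Retn, whose sum ranged from 43.1 to 324 CPM (r = 0.70, rho 0.65, permutation p 0.000670, BH 0.00452), with r of 0.72, 0.77 and 0.46 in lanes 2, 3 and 4 (exact permutation p 0.0501, 0.0307 and 0.207). It also followed the leukocyte list (r = 0.64, permutation p 0.00115, BH 0.00536), with r of 0.65 and 0.86 in lanes 2 and 3 and -0.43 in lane 4 (exact permutation p 0.0372, 0.00738 and 0.259). Gamt was also higher with the stroma list (r = 0.56, BH 0.00452) and lower with the brown adipocyte list (r = -0.51, BH 0.0178, permutation test). The genes most like Gamt over the 32 libraries were Rasa4 (r = 0.821), Gas6 (r = 0.738) and Ints6l (r = 0.734). With the white fat list as a covariate the time points of Ckb, Slc6a8 and Alpl all passed (edgeR adjusted p 0.0345, 0.00331 and 0.0188), as did those of 5847 of all 15505 genes. Lep made up 71.2% of the sum of this list and itself varied with the hour. Its means ran from 23.8 CPM at ZT6 to 199 CPM at ZT15, and its cosine had an edgeR adjusted p of 0.00170. This covariate thus carries the time of day and is no measure of tissue makeup alone.

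Slc6a8 was lower in the mice with more of the brown adipocyte list (r = -0.72, rho -0.67, permutation p 0.000310, BH 0.00356), and none of the 10 markers was positive. Within lanes 2, 3 and 4 r was -0.84, -0.82 and 0.04 (exact permutation p 0.00224, 0.00427 and 0.934). It was higher with the stroma list (r = 0.63, BH 0.00486) and the nerve list (r = 0.62, BH 0.00452, permutation test). The gene most like it was Erbb3, a neuregulin receptor of Schwann cells (r = 0.897), followed by Zfp395 (r = 0.861) and Ip6k1 (r = 0.852). Alpl was the one member that rose with the brown adipocyte list (r = 0.64, rho 0.58, permutation p 0.00119, BH 0.00536), with 9 of 10 markers positive and r of 0.42, 0.76 and 0.62 within lanes 2, 3 and 4 (exact permutation p 0.230, 0.00564 and 0.243). Alpl was lower with more of the leukocyte and white fat lists (r = -0.50 for both, BH 0.0225 and 0.0401, permutation test). The genes most like Alpl were Fbxw2 (r = 0.802), Pxmp4 (r = 0.769) and Crat, the carnitine acetyltransferase (r = 0.747). Without the 2 libraries farthest from the median of the marker sum, r was 0.88 for Gatm with nerve, 0.77 for Ckb with endothelium, 0.70 and 0.47 for Gamt with white fat and leukocytes, and -0.69 and 0.56 for Slc6a8 and Alpl with brown adipocytes. What part the makeup of the fat pad has in these values was not tested further.

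**Figure D3:**
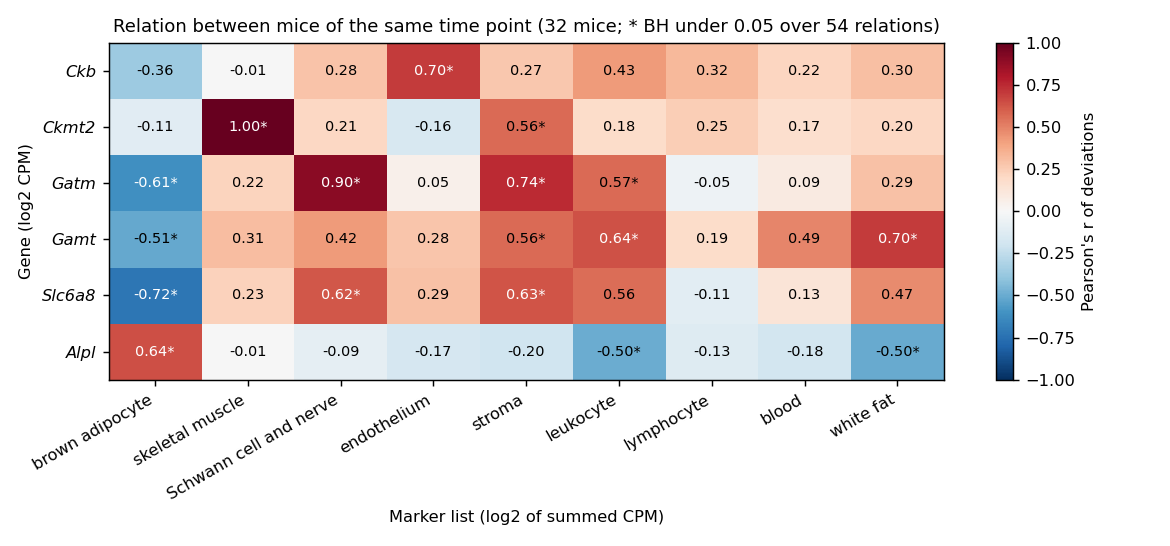
Pearson's r between each creatine cycling gene (rows, log2 CPM) and the summed level of each marker list (columns), from deviations of 32 mice from the mean of their time point, with red for positive and blue for negative values and an asterisk for BH under 0.05 over 54 relations. Ckmt2 stands with skeletal muscle, Gatm with nerve (0.90), Ckb with endothelium (0.70), Gamt with white fat (0.70), and Alpl alone has a positive value past the threshold with brown adipocytes (0.64).

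**Figure D4:**
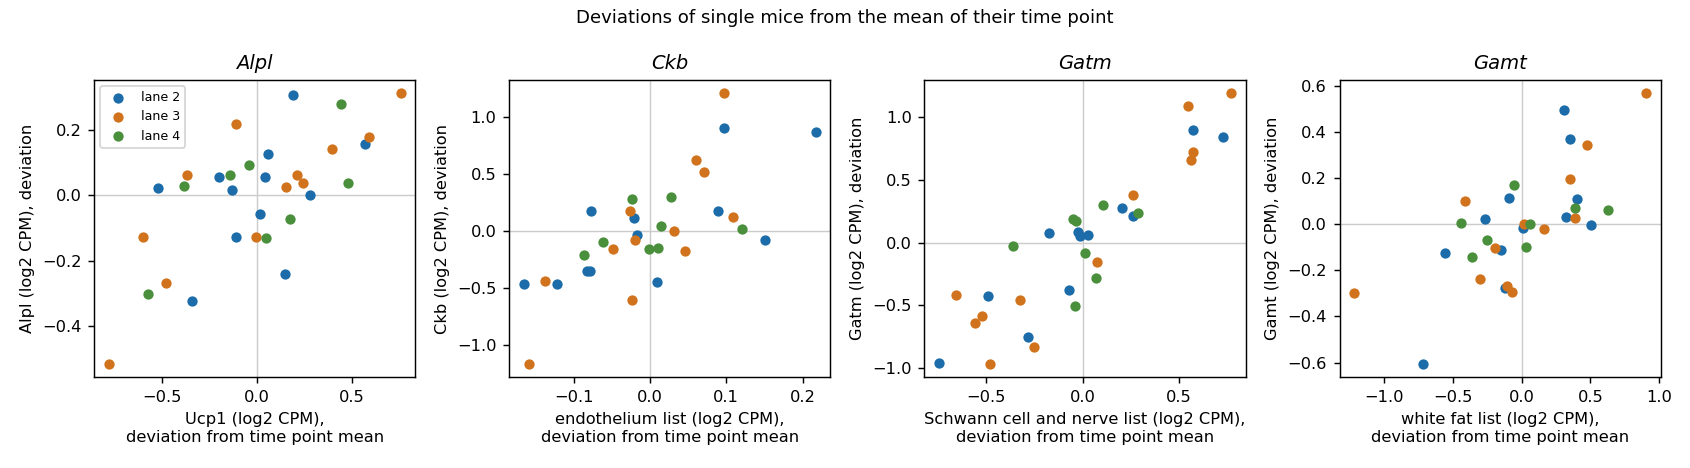
Deviation of each mouse from the mean of its time point on the log2 scale for Alpl, Ckb, Gatm and Gamt (y axes) against Ucp1 or a marker list (x axes), 1 point per mouse coloured by sequencing lane. The points of lane 4 span a narrower range for Gatm and Gamt than those of lanes 2 and 3, and r over all mice is 0.67, 0.70, 0.90 and 0.70 from left to right.

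The genes around the cycle were taken from lists and read against the 36.1% of all genes with a cosine. Of the other creatine kinases and the exporter, neither tested gene had a cosine. Ckm had an edgeR adjusted p of 0.704. Slc16a12, a creatine exporter, had a mean of 0.554 CPM and an adjusted p of 0.191. Ckmt1, the mitochondrial kinase of non-muscle tissues, was not tested, with 14 reads in all 32 libraries. The supply of arginine, glycine and methyl groups gave 6 of 9 tested genes, with a median amplitude of 0.17. Ass1, the argininosuccinate synthase of arginine synthesis, had the widest swing of them, with an amplitude of 1.00 (SE 0.09) and a peak at ZT10.1, followed by Mat2a, which makes the methyl donor (0.26), Shmt1 (0.25) and Asl (0.17). With lane as a factor, Ass1 and Mat2a kept a cosine (edgeR adjusted p 2.29e-05 and 0.00601), whereas Shmt1 and Asl did not (0.484 and 0.294). Of the 12 genes in the list, 3 did not pass the expression filter.

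Adenine nucleotide exchange, the handover of ATP at the mitochondrion, gave 3 of 8 genes. Among them, the matrix enzyme Ak3 peaked at ZT17.3 with an amplitude of 0.21, and the outer membrane channel Vdac3 had an amplitude of 0.07. Phosphate handling gave 3 of 5 genes, the pyrophosphate exporter Ank (0.32, peak at ZT21.1) and the phosphate transporters Slc20a2 (0.27, peak at ZT11.6) and Slc20a1 (0.22, peak at ZT13.8). With lane as a factor none of the phosphate genes kept a cosine (edgeR adjusted p 0.0528 for Ank, 0.185 for Slc20a2 and 0.755 for Slc20a1). Phospho1, another phosphatase, had an edgeR adjusted p of 0.185.

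Regulators that have been reported for the cycle gave 5 of 9 genes, with a median amplitude of 0.18. Adrb3, the adrenergic receptor of brown adipocytes, peaked at ZT0.5 with an amplitude of 0.72 (SE 0.12), and the orphan receptor genes Esrrb, Esrrg and Esrra peaked at ZT17.8, ZT9.4 and ZT10.5 with 0.72, 0.31 and 0.18. Esrrb kept its cosine beside lane (edgeR adjusted p 0.000406), whereas Adrb3, Esrrg and Esrra did not (0.1235, 0.126 and 0.598). Of other heat-producing cycles, 2 of 5 genes had a cosine, Ucp1 (amplitude 0.43, SE 0.11, peak at ZT6.5) and the calcium pump Atp2a2 (0.21, peak at ZT11.2). Neither kept it with lane as a factor (edgeR adjusted p 0.202 and 0.742). Atp2a1 and Ryr1, the pump and channel of skeletal muscle, had adjusted p of 0.755 and 0.725. The cosine shares of 5 of the 6 lists were above the background. Among these, adenine nucleotide exchange (3 of 8) and other heat-producing cycles (2 of 5) were close to it. The list with 2 tested genes was below it, and none of these lists has more than 9 tested genes. With lane as a factor a cosine was kept by 2 of 9 supply genes and 2 of 9 regulators, beside 17.2% of all genes. It was kept by 1 of 8 genes of adenine nucleotide exchange and by none of the phosphate, heat-producing and creatine kinase lists.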

How the data were processed

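Raw gene counts of 32 iBAT libraries were analysed. Per the labels and the study's methods, the authors made stranded libraries for paired-end sequencing, aligned reads to mm10 with GSNAP and deposited HTSeq (version 0.6.1) counts per gene. The strand setting of the counting is not given in the sources used here. Groups come from the time given in the labels, and lanes from the sequencing run named there. Positions are those of GENCODE M21 on GRCm38, and upstream sequences those of RefSeq (GRCm38.p6), which matched 5 of the 6 members.

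Counts were scaled by TMM and filtered with filterByExpr in edgeR 4.0.16 (R 4.3.3). Quasi-likelihood tests used a 24 h cosine, the 8 time points, contrasts between them, or the time points of 1 lane, with Benjamini-Hochberg (BH) adjustment over the 15505 tested genes and a threshold of 0.05. Amplitudes with their SE and peaks were fitted by least squares to log2 CPM (prior count 2). DESeq2 1.42.0 was an alternative. JTK was computed for periods of 21 and 24 h. Relations used deviations from time-point means, permuted within time points (100000 resamples, or exact enumeration within lanes). Scripts were tested on simulated data.

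Text names the 6 genes, Ckm, the genes of each list with a cosine (at most 4, by amplitude, or the 2 of highest level where none had one) and the 3 genes most like each member by Pearson's r among those of at least 1 CPM. Other genes named (Ckmt1, Phospho1, Atp2a1, Ryr1 and single markers) were chosen after their values were seen. A few genes that this rule names are not reported here. Members, lists and tests were chosen with earlier results of these data known. Each library is 1 mouse, and same-time libraries differed by more than sampling noise (lowest mean chi-square per gene 7.37 over 48 pairs).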

Additional observations from a re-analysis of the deposited data

Results flagged for a closer look

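In 5 of the 48 groups of 4 mice, the 6 genes at 8 time points, 1 mouse lay far from the 3 others by Dixon's criterion. Chance flags about 1 group in 20. Ckb at ZT3 was low in replicate 3, with 14.7 CPM beside 21.7 to 22.7 CPM in the others. Ckmt2 was high in replicate 2 of ZT3, with 61.6 CPM beside 0 to 0.720 CPM, and in replicate 2 of ZT6, with 12.4 CPM beside 0 to 0.119 CPM. Both were the mice with the highest Ckm of their time point (624 and 151 CPM). Gatm was high in replicate 3 of ZT9, with 7.86 CPM beside 2.21 to 3.02 CPM. The same mouse had the highest Ckb of all libraries (58.7 CPM). Slc6a8 was high in replicate 1 of ZT15, with 72.6 CPM beside 35.6 to 41.7 CPM, and that mouse also had 617 CPM of Ckm. It had the lowest brown adipocyte sum (10523 CPM) and the highest white fat sum (324 CPM) of all libraries. The cause of these values was not tested.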

How the results depend on the processing

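The cosine count of 2 members, beside 5602 of 15505 genes, was 1 with no filter on low counts, beside 4787 of 30586 genes. It was 1 with the nerve covariate (5162 of 15505 genes) and 0 with lane as a factor (2661 of 15505 genes). Removing the libraries with Ckm over 10 CPM leaves 13 mice, none of ZT15 and 1 each of ZT0, ZT12 and ZT21. Counts from that fit are therefore not compared, and the cosine amplitude there was 0.74 for Ckb and 0.09 for Alpl. The time point count of 1, beside 6173 of 15505 genes, was 2 with DESeq2 size factors (6098 genes), library size only (5449 genes) and DESeq2 (7013 genes). It was also 2 with no filter (4909 of 30586 genes) and with filterByExpr without groups (6003 of 13549 genes). With the white fat covariate, which carries the hour through Lep, it was 3, beside 5847 of 15505 genes. Over ZT12 and ZT0 the count of 0 became 1 with library size only, beside 2288 of 15505 genes. Alpl there had a log2 fold change of 0.38 (edgeR adjusted p 0.0388). The 3 h steps gave 2 with the white fat covariate. Without the libraries with Ckm over 10 CPM the steps to and from ZT15 do not exist. Slc6a8 at ZT3, there set against a single mouse of ZT0, had a log2 fold change of 1.13. JTK counts among those 13 mice are not compared either. The relations to Ckm went from 1 to 0 among them, with r still 0.87 for Ckmt2. With each library left out in turn the counts ranged from 1 to 4 for the cosine (4 without replicate 1 of ZT15, where Gatm and Slc6a8 passed with edgeR adjusted p 0.0337 and 0.0443), from 1 to 2 for time points, from 0 to 1 for ZT12 against ZT0 (1 without replicate 4 of ZT12), from 1 to 2 for steps (2 without the same mouse), from 0 to 1 for JTK, from 3 to 12 for the 21 relations, and stayed at 1 within lanes and for Ckm. By JTK, Ckb passed without replicate 4 of ZT0, replicates 1 or 2 of ZT6, replicate 1 of ZT9, replicate 1 of ZT12 or replicate 1 of ZT15. Of the 21 relations, 12 passed without replicate 4 of ZT12, 3 without replicate 1 of ZT15, and 5 without replicate 3 of ZT9 or replicate 1 of ZT12. No result past its threshold changed direction. Among values that missed it, with 1 library left out the log2 fold change of Ckmt2 at ZT12 against ZT0 ran from -1.22 to 0.96 and that of Gamt from -0.29 to 0.07, and several values of r near 0 also changed sign, such as those of Ckb and Alpl with Ckm. The cause of the changes was not tested.

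Replicate numbers do not mark a shared mouse, cage or day in the labels, and the deviations of same-numbered libraries had a mean r of -0.03 over 112 pairs. With the replicate block, counts were 2 for the cosine (5373 of 15505 genes), 1 for the time points (5957 genes) and 0 for ZT12 against ZT0 (2385 genes). They were 1 for the 3 h steps and 1 within lanes. Slc6a8 ZT3 minus ZT0 had a log2 fold change of 0.89 (edgeR adjusted p 0.00935), in a step that 2036 of 15505 genes passed. Of 32 libraries, 4 correlated best with their own number.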
